A study of Mus musculus with 9 samples.

Results

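The comparison described here is that of Usp22-KOB pancreatic tumor cells with wild-type (WT) tumor cells of the same clone, across every gene whose values in the 6 samples averaged 1 TPM or more. TPM is the share of a library's transcripts that a gene holds, corrected for transcript length. Of 24493 genes in the expression table, 13885 met that rule and 10608 fell below it. The 6419c5 clone is a mouse pancreatic tumor cell line on the C57BL/6 background. Both groups were 6419c5 cells recovered from tumors that had been implanted under the skin and were labelled late stage, and polyadenylated RNA was sequenced from 3 samples of each genotype, WT and Usp22-KOB. The group labelled Usp22-KOA, which completes the series of 9 samples, was left out. The labels do not say what the letter B stands for, whether the knockout is 1 clone, whether each sample came from its own mouse, or how the tumor cells were separated from the rest of the tumor. The p-values below therefore rest on how far these 6 samples scatter, and that scatter may be technical.

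Usp22 encodes a ubiquitin-specific protease that forms the catalytic part of the deubiquitinase module of SAGA, a large transcriptional coactivator complex that acts on histones at active genes. Pancreatic ductal tumor cells often keep part of a gastric-like ductal program, with mucins, trefoil factors and tight junction proteins, and lose it as they become less differentiated. Interferon signalling runs through STAT and IRF transcription factors and turns on antiviral proteins, GTPases of innate immunity, antigen presentation and chemokines that attract T cells and natural killer (NK) cells.

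The gene targeted in the knockout was much lower in every Usp22-KOB sample. Usp22 (chromosome 11, 61151785 to 61175055, in GRCm38) was at 55.1, 54.5 and 56.4 TPM in WT and 11.8, 14.9 and 14.1 TPM in Usp22-KOB, so that no sample of one group came near the other. Its mean in Usp22-KOB was 24.5% of that in WT (log2 difference -1.96 ± 0.09, adjusted p = 2.02e-05). Here and below, the log2 difference is that of log2(TPM + 1), Usp22-KOB minus WT, given with its standard error. This scale understates the change of genes at a few TPM. The adjusted p comes from limma with Benjamini-Hochberg adjustment over all genes tested, and a gene is said to have risen or fallen where it is under 0.05. An exact two-sided permutation test of Usp22 alone gave p = 0.1, the smallest p that 3 samples against 3 allow. Transcript remaining from an edited gene can still be counted, so these levels check the labels and say nothing of the protein.

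Among the partners of Usp22 in the deubiquitinase module, 1 of 8 tested genes rose and 3, Usp22 included, fell. Over all genes tested 17.4% rose and 17.1% fell, and the count of each list below is to be read beside these shares. Atxn7l3, the adaptor that activates the protease, was at 36.1, 34 and 34.2 TPM in WT and 39.7, 39.8 and 44.5 TPM in Usp22-KOB (log2 difference 0.24 ± 0.07, adjusted p = 0.0343), and the groups did not overlap. Eny2, a small subunit of the module, was at 40.0, 38.3 and 35.5 TPM in WT and 29.1, 27.3 and 33.4 TPM in Usp22-KOB (log2 difference -0.34 ± 0.09, adjusted p = 0.0267). The call of Atxn7l3 was lost without Usp22-KOB 1, Usp22-KOB 2, WT 1, WT 2 or WT 3, and that of Eny2 without Usp22-KOB 1, Usp22-KOB 2, WT 1 or WT 2. Atxn7l2, a paralog of the module's anchor, fell further, from 16.8, 13.7 and 12.8 TPM to 8.08, 9.63 and 8.38 TPM (log2 difference -0.66 ± 0.12, adjusted p = 0.00622). Of 17 other SAGA subunits, 1 rose and 2 fell (Sf3b5, and Taf10 and Sf3b3), shares of 5.88% and 11.8% that lie below those of all genes. The number higher was 0 without Usp22-KOB 1, Usp22-KOB 2, WT 1 or WT 3, and the number lower 1 without Usp22-KOB 1, Usp22-KOB 2, WT 1 or WT 2. The largest of these changes was in Taf10, a subunit shared with TFIID, at 195, 189.5 and 190.4 TPM in WT and 154, 158 and 132 TPM in Usp22-KOB (log2 difference -0.37 ± 0.07, adjusted p = 0.00833). Atxn7l2 lies on chromosome 3 and Taf10 on chromosome 7, where 49.5% and 33.5% of the tested genes fell, as described below.

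Both groups carried keratins of ductal epithelium. Krt8 was at 2585, 2379 and 2520.2 TPM in WT and 2425, 2477 and 3001 TPM in Usp22-KOB and Krt18 at 1857, 1718 and 1739 TPM in WT and 1709, 1761 and 1997 TPM in Usp22-KOB. Krt19, the duct keratin, was at 2130.3, 2011 and 2053 TPM in WT and 1735, 1841 and 2156 TPM in Usp22-KOB, and E-cadherin (Cdh1) at 389.7, 400.0 and 409.9 TPM in WT and 317, 338 and 404 TPM in Usp22-KOB. All 4 overlapped between the groups, and none passed the test. Without the third Usp22-KOB sample, Krt19 and Cdh1 passed as lower. Epcam, the epithelial adhesion molecule that is the fifth of the epithelial markers checked, stood apart from them at 399.6, 373 and 364 TPM in WT and 25.4, 32.6 and 35.8 TPM in Usp22-KOB (log2 difference -3.57 ± 0.12, adjusted p = 6.99e-06). Its mean was 12.1-fold lower in Usp22-KOB. The keratins thus bear out the label of ductal tumor cells in all 6 samples, while Epcam was not at an even level.

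RNA of other cells was also present. Ptprc, which encodes the leukocyte antigen CD45, was at 13.5, 20.4 and 11 TPM in WT and 44.3, 42.4 and 20.9 TPM in Usp22-KOB (log2 difference 1.18 ± 0.32, adjusted p = 0.0272), and Csf1r, the receptor that macrophages depend on, at 42.9, 65.8 and 38.9 TPM in WT and 202, 197 and 105 TPM in Usp22-KOB (log2 difference 1.73 ± 0.29, adjusted p = 0.00418). The call of Ptprc was lost without Usp22-KOB 1, Usp22-KOB 2, WT 1 or WT 3. Markers of NK cells (Ncr1), B cells (Cd79a), dendritic cells (Flt3), adipocytes (Adipoq) and skeletal muscle (Ckm) had means under the 1 TPM rule. Other genes of some of these cell types were present. The adipocyte list summed to 41 to 49.95 TPM over the 6 samples and the skeletal muscle list to 31.5 to 46.2 TPM. Red cell and platelet genes summed to 464 to 1011 TPM, although the globin gene Hbb-bs was listed at 0 in all 6. In bulk RNA more cells of a type and more RNA per cell cannot be told apart. A pair of samples stood out within their groups. The third Usp22-KOB sample was the lowest of its group in 16 of 16 pan-leukocyte markers, 24 of 24 macrophage markers and 15 of 15 T cell markers. The second WT sample was the highest of its group in 16 of 16 pan-leukocyte markers and 22 of 24 macrophage markers. Over all 13885 genes these samples were lowest and highest of their group in 3093 and 5501.

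Of the 13885 genes tested, 4793 (34.5%) passed the test, 2413 (17.4%) of them higher and 2380 (17.1%) lower in Usp22-KOB. Changes of at least 1 log2 unit were found for 636 higher and 583 lower genes, and of at least 3 units for 19 higher and 52 lower genes. Many of the calls were small, with 2059 under 0.5 log2 units. The number of calls was 3104 without WT 1 and 3023 without Usp22-KOB 2. The median difference over all genes was -0.01. The samples of 1 group correlated with Pearson's r of 0.972 to 0.984 across genes on the log2 scale, and samples of different groups with 0.915 to 0.944. All 3 Usp22-KOB values lay above all 3 WT values for 3461 genes (24.9%) and below them for 3357 (24.2%). TPM carry no record of sequencing depth, which is unknown here.

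**Figure D1:**
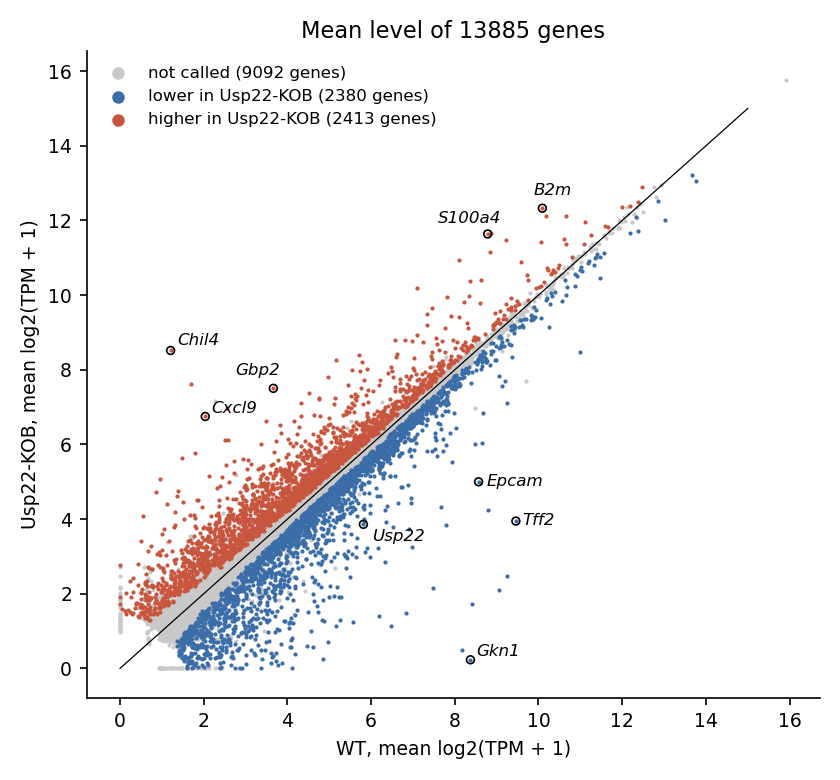
Mean log2(TPM + 1) in the 3 WT samples (horizontal) and the 3 Usp22-KOB samples (vertical) for each of the 13885 genes tested, coloured by the call. The lower right holds genes high in WT and nearly lost in Usp22-KOB, such as Gkn1 and Tff2, and the upper left genes such as Chil4, Cxcl9 and Gbp2 that were near the floor in WT.

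Genes induced by interferon were among the largest rises. All 17 tested interferon-inducible GTPases rose, with a median log2 difference of 2.34, where 17.4% of all genes tested rose. These proteins attack vacuoles that hold intracellular pathogens. Gbp2, a guanylate-binding protein, was at 11.4, 17.4 and 7.92 TPM in WT and 169.7, 178 and 194 TPM in Usp22-KOB, a 14.8-fold higher mean (log2 difference 3.84 ± 0.24, adjusted p = 5.93e-05). Gbp4 was at 1.87, 2.36 and 1.38 TPM in WT and 20.9, 20.1 and 21.7 TPM in Usp22-KOB (log2 difference 2.95 ± 0.14, adjusted p = 2.02e-05), and Gbp5 at 1.9, 3.05 and 1.74 TPM in WT and 15.8, 15.6 and 17.4 TPM in Usp22-KOB (log2 difference 2.44 ± 0.16, adjusted p = 8.22e-05). The values of the 3 Usp22-KOB samples lay close together and far above those of WT for these 3 guanylate-binding genes.

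The same held for the immunity-related GTPases, a second family of that list. Iigp1 was at 3.98, 10.1 and 2.69 TPM in WT and 115, 118 and 147 TPM in Usp22-KOB (log2 difference 4.43 ± 0.37, adjusted p = 0.000216). Tgtp1 was at 4.11, 7.42 and 3.19 TPM in WT and 61.1, 64.9 and 79.2 TPM in Usp22-KOB (log2 difference 3.61 ± 0.25, adjusted p = 9.43e-05), and its close copy Tgtp2 at 1.48, 6.81 and 1.14 TPM in WT and 50.8, 52.7 and 58.9 TPM in Usp22-KOB (log2 difference 3.99 ± 0.45, adjusted p = 0.000837). In each of the 3, the third Usp22-KOB sample, which had the fewest leukocyte transcripts of its group, was the highest. Over the list, that sample was the lowest of its group in 3 of 17 genes. Its median lay 0.12 log2 units above the mean of the other 2 Usp22-KOB samples. Both values were near those of all genes tested, with 3093 of 13885 genes lowest in that sample and a median of 0.11. The second WT sample was the highest of its group in 16 of the 17. Assignment of reads between near-identical copies (Tgtp1 and Tgtp2, Chil3 and Chil4, MHC class I genes, gastrokines, Reg genes, mast cell proteases, globins, and Rps27 and its copy Rps27rt) is uncertain, and single values of such genes are less sure than the sum.

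The wider set of interferon-stimulated antiviral genes rose by less. Of 37 tested, 31 rose and none fell, with a median of 0.97. Bst2 (tetherin), which holds budding virus at the cell surface, was at 205, 224 and 189 TPM in WT and 445, 434 and 424 TPM in Usp22-KOB (log2 difference 1.07 ± 0.07, adjusted p = 6.71e-05). Usp18, a brake on interferon signalling, was at 5.77, 7.94 and 5.98 TPM in WT and 18.7, 23.5 and 20.3 TPM in Usp22-KOB (log2 difference 1.53 ± 0.14, adjusted p = 0.000301). Xaf1 was at 16.1, 16.3 and 14.5 TPM in WT and 30.3, 31.2 and 35.9 TPM in Usp22-KOB (log2 difference 1.01 ± 0.09, adjusted p = 0.000303) and Tor3a at 8.82, 9.28 and 8.62 TPM in WT and 21.6, 23.4 and 19.7 TPM in Usp22-KOB (log2 difference 1.19 ± 0.09, adjusted p = 0.000133). In all 4 genes no value of one group reached the other. The 6 genes that did not pass were Oasl1, Mx2, Ifitm1, Eif2ak2, Trim25 and Samd9l, of which Ifitm1 passed as lower without Usp22-KOB 1. Genes that are named as the exceptions of a list, here and below, were chosen after their values were seen.

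Of the transcription factors and regulators of the pathway, 12 of 22 rose, none fell, and the median was 0.24. Stat2, which carries the type I interferon signal to the nucleus, was at 14, 15.8 and 12.3 TPM in WT and 26.7, 26.5 and 24.1 TPM in Usp22-KOB (log2 difference 0.84 ± 0.10, adjusted p = 0.00117). Nlrc5, the transactivator of MHC class I genes, was at 2.37, 4.46 and 1.55 TPM in WT and 20.9, 20.7 and 23.7 TPM in Usp22-KOB (log2 difference 2.66 ± 0.26, adjusted p = 0.000435). The feedback inhibitor Socs1 was at 14.3, 16.2 and 15.2 TPM in WT and 34.5, 30.5 and 30.8 TPM in Usp22-KOB (log2 difference 1.02 ± 0.08, adjusted p = 0.000196). The 3 Usp22-KOB samples agreed closely in each, and no value of one group reached the other.

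The promoters of several of these genes hold the interferon-stimulated response element (ISRE), the sequence bound by IRF factors. The letters searched were GAAANNGAAA on both strands (TTTCNNTTTC on the other), in the 300 bases from 250 before to 50 after each RefSeq gene start (GRCm38.p6). They occur in 1131 of 32851 promoters of that length (3.44%), or in 1079 of 27025 genes (3.99%). Of the 22 genes of MHC class I presentation, 20 had a promoter in the table, and 5 of these (25%) held the letters. Only 11 of the 17 GTPases and 26 of the 37 antiviral genes had a promoter in the table, so a share over those lists is void. A match describes the letters and is neither a bound site nor a cause. The 8 stretches of 120 bases that follow come from genes named in this text and were shown because they hold the letters, which stand in capitals. They lie upstream of the RefSeq start and are written 5′ to 3′ in the direction of the gene. Those of Gbp5 and Tgtp1 lie inside the gene spans of GENCODE M21, which gave the gene positions used here.
Gbp5: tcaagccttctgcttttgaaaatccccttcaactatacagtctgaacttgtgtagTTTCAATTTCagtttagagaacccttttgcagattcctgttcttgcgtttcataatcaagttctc
Tgtp1: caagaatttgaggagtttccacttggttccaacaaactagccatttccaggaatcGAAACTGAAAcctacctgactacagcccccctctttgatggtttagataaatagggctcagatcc
Tgtp2: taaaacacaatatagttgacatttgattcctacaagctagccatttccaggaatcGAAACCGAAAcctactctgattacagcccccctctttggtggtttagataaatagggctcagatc
Bst2: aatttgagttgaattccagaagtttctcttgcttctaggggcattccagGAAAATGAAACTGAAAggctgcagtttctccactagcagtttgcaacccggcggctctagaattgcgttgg
Stat2: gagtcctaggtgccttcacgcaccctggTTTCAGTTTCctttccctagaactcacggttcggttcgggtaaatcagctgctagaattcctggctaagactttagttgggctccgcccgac
Socs1: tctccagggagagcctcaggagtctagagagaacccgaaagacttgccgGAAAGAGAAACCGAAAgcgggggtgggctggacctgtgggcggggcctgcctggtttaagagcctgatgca
B2m: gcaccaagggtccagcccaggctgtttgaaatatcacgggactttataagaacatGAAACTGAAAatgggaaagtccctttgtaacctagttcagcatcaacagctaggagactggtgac
Cxcl10: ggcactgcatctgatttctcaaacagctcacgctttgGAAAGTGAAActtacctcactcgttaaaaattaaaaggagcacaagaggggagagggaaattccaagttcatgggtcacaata
Their positions are chr3:142496714-142496833 (plus strand) for Gbp5, chr11:48992259-48992378 (minus strand) for Tgtp1, chr11:49064218-49064337 (minus strand) for Tgtp2, chr8:71537532-71537651 (minus strand) for Bst2, chr10:128270248-128270367 (plus strand) for Stat2, chr16:10785549-10785668 (minus strand) for Socs1, chr2:122147493-122147612 (plus strand) for B2m and chr5:92349020-92349139 (minus strand) for Cxcl10. In Bst2 and Socs1 the capitals are 2 overlapping matches.

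Antigen presentation by MHC class I rose in nearly all its parts. Of 22 genes, 18 rose, with a median of 1.42, and 3 fell. B2m, the common light chain, was at 1026, 1436 and 881 TPM in WT and 5266, 5033 and 5136 TPM in Usp22-KOB, the largest gain in mean TPM among called genes (log2 difference 2.24 ± 0.16, adjusted p = 0.000117). The classical heavy chains H2-K1 and H2-D1 followed. H2-K1 was at 416, 688 and 357 TPM in WT and 3293, 2993 and 3435 TPM in Usp22-KOB (log2 difference 2.79 ± 0.22, adjusted p = 0.000175), and H2-D1 at 545, 811 and 483 TPM in WT and 2906, 2802 and 2863 TPM in Usp22-KOB (log2 difference 2.25 ± 0.17, adjusted p = 0.000152). The non-classical genes H2-T23 at 107, 125 and 102 TPM in WT and 465, 422 and 437 TPM in Usp22-KOB (log2 difference 1.98 ± 0.08, adjusted p = 1.20e-05) and H2-Q8 at 5.77, 4.9 and 4.26 TPM in WT and 80.6, 63.3 and 63.4 TPM in Usp22-KOB (log2 difference 3.55 ± 0.13, adjusted p = 8.34e-06) rose as well. Psmb10, an immunoproteasome subunit that cuts peptides for loading, was at 93.1, 102 and 86.9 TPM in WT and 191, 184 and 186 TPM in Usp22-KOB (log2 difference 0.98 ± 0.07, adjusted p = 0.000106).

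The 3 genes of that list that fell were Calr, Canx and Pdia3, general chaperones of the endoplasmic reticulum that also fold class I chains. Calr was at 806, 812 and 795 TPM in WT and 649, 662 and 674 TPM in Usp22-KOB (log2 difference -0.28 ± 0.04, adjusted p = 0.00241). Their falls were under 0.5 log2 units, against rises of over 2 units for B2m, H2-K1 and H2-D1. The call of Canx was lost without Usp22-KOB 2, WT 1 or WT 3, and that of Pdia3 without Usp22-KOB 1, Usp22-KOB 2, WT 1, WT 2 or WT 3. The third Usp22-KOB sample was the lowest of its group in only 2 of the 22 genes, and the second WT sample the highest of its group in 20. Without that Usp22-KOB sample 18 genes rose and 3 fell, and without that WT sample 18 rose and 2 fell.

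H2-M2, a class I-like gene outside that list, was among the largest rises of all, at 2.28, 2.35 and 0.939 TPM in WT and 54.6, 60.3 and 35.6 TPM in Usp22-KOB (log2 difference 4.17 ± 0.27, adjusted p = 7.19e-05). Ubd, a ubiquitin-like modifier induced by inflammatory cytokines, was at 1.37, 2.97 and 0.106 TPM in WT and 23.1, 21 and 17.4 TPM in Usp22-KOB (log2 difference 3.29 ± 0.42, adjusted p = 0.00139). Slurp1, a secreted Ly6-type protein of epithelia, was at 0.753, 1.84 and 2.38 TPM in WT and 23.5, 25.4 and 22.6 TPM in Usp22-KOB (log2 difference 3.27 ± 0.23, adjusted p = 0.000108). In H2-M2 the third Usp22-KOB sample was the lowest of its group and still far above the highest WT value.

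MHC class II genes, which professional antigen-presenting cells express and interferon-gamma can induce elsewhere, rose in 9 of 10 tested cases (median 2.14). Cd74, the invariant chain, was at 456, 850.2 and 252 TPM in WT and 2962, 2339.9 and 1705 TPM in Usp22-KOB (log2 difference 2.30 ± 0.42, adjusted p = 0.00568). Ciita, the master regulator of the class, was at 2.76, 4.43 and 1.16 TPM in WT and 14.5, 12.3 and 11 TPM in Usp22-KOB (log2 difference 1.94 ± 0.31, adjusted p = 0.00359). Ctss, the protease that cuts the invariant chain, was at 204, 291 and 189 TPM in WT and 1181, 1172 and 680.5 TPM in Usp22-KOB (log2 difference 2.12 ± 0.25, adjusted p = 0.000946), and H2-DMb1, which helps to load peptides, at 26.4, 46.8 and 13.9 TPM in WT and 177, 147 and 123 TPM in Usp22-KOB (log2 difference 2.46 ± 0.38, adjusted p = 0.00307). The third Usp22-KOB sample was the lowest of its group in 10 of 10 of these genes, and the second WT sample the highest of its group in 9. Pan-leukocyte markers moved in the same samples, as described below, and their part in the class II rise was not tested.

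**Figure D2:**
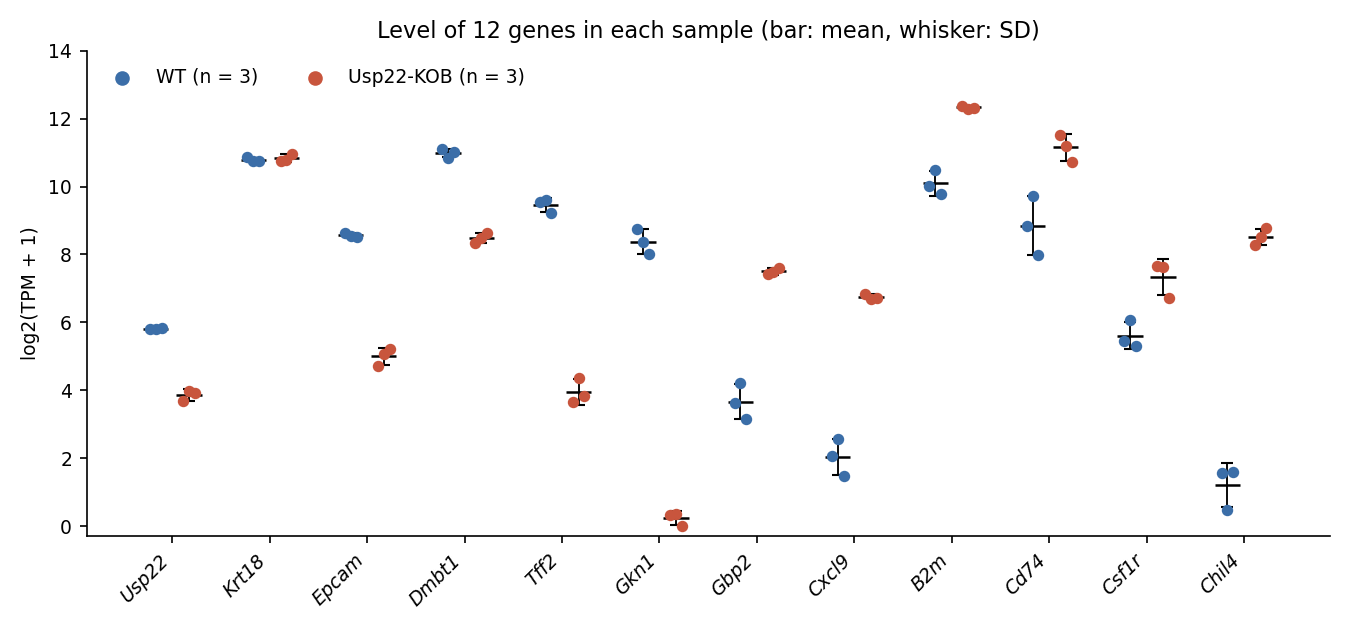
Level of 12 genes on a log2(TPM + 1) scale in each WT sample (blue, left of each pair) and each Usp22-KOB sample (red, right), in replicate order, with the mean as a bar and the SD as a whisker (n = 3 each). Krt18 overlaps between the groups, Usp22, Epcam, Dmbt1, Tff2 and Gkn1 lie lower in Usp22-KOB, and the other 6 genes lie higher.

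Chemokines that draw T cells and NK cells through CXCR3 and related receptors rose in 8 of 9 tested cases (median 1.62). Cxcl9, a ligand of CXCR3 induced by interferon-gamma, was at 3.19, 4.9 and 1.8 TPM in WT and 113, 102 and 105 TPM in Usp22-KOB, a 32.4-fold higher mean (log2 difference 4.71 ± 0.24, adjusted p = 2.90e-05). Cxcl10, a second ligand of that receptor, was at 9.81, 13.5 and 8.23 TPM in WT and 102, 93.9 and 99.2 TPM in Usp22-KOB (log2 difference 3.13 ± 0.15, adjusted p = 2.43e-05). Cxcl11, which the annotation classes as a polymorphic pseudogene, was lower in level, at 1.66, 2.73 and 2.69 TPM in WT and 6.57, 5.31 and 5.31 TPM in Usp22-KOB (log2 difference 1.01 ± 0.17, adjusted p = 0.00452). For Cxcl9 and Cxcl10 all 3 Usp22-KOB samples were within a narrow band, the third included. Cxcl12, a homing chemokine of stromal cells, was at 2.62, 3.89 and 3.67 TPM in WT and 14.9, 10.1 and 7.76 TPM in Usp22-KOB (log2 difference 1.41 ± 0.23, adjusted p = 0.00374). The number of the list that rose was 5 without Usp22-KOB 2 or WT 1.

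Among attractants and growth factors of monocytes and macrophages, 6 of 13 rose and 1, Cx3cl1, fell, a call that was lost without Usp22-KOB 1, Usp22-KOB 2, WT 1, WT 2 or WT 3. Ccl8 was at 172, 574 and 206 TPM in WT and 2675, 2492 and 1158 TPM in Usp22-KOB (log2 difference 2.85 ± 0.50, adjusted p = 0.00489), Ccl6 at 279, 421 and 299.7 TPM in WT and 1636, 1662 and 886 TPM in Usp22-KOB (log2 difference 2.03 ± 0.26, adjusted p = 0.00152) and Ccl9 at 43.7, 69.4 and 46.3 TPM in WT and 293, 306 and 168 TPM in Usp22-KOB (log2 difference 2.23 ± 0.26, adjusted p = 0.00101). All 3 are made by macrophages, and in each the third Usp22-KOB sample lay between WT and the other Usp22-KOB samples. Ligands that act on neutrophils split. Cxcl5, made by epithelial cells, fell from 440.1, 379 and 403 TPM to 98.5, 113 and 131 TPM (log2 difference -1.83 ± 0.11, adjusted p = 4.89e-05). Cxcl3 was at 37.4, 38.2 and 48.8 TPM in WT and 136, 131 and 78.8 TPM in Usp22-KOB (log2 difference 1.42 ± 0.21, adjusted p = 0.00272), and the platelet-type chemokine Pf4 at 177, 189.5 and 205 TPM in WT and 529, 465 and 281 TPM in Usp22-KOB (log2 difference 1.11 ± 0.22, adjusted p = 0.00769). Over that list 5 of 11 rose and 2, Cxcl5 and Csf3, fell. The number that rose was 3 without Usp22-KOB 1, Usp22-KOB 2, WT 2 or WT 3, and the number that fell 1 without Usp22-KOB 1, Usp22-KOB 2 or WT 1.

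Ligands and enzymes that restrain T cells rose in 13 of 20 cases and fell in 2 (median 0.68). The number that rose was 7 without Usp22-KOB 2 and 8 without WT 3. Ido1, which breaks down tryptophan, was at 2.05, 1 and 0.198 TPM in WT and 35.9, 37.1 and 26.3 TPM in Usp22-KOB (log2 difference 4.12 ± 0.32, adjusted p = 0.000168). Cd274, which encodes PD-L1, was at 9.98, 9.91 and 9.32 TPM in WT and 26.6, 26.1 and 19.7 TPM in Usp22-KOB (log2 difference 1.22 ± 0.12, adjusted p = 0.000517), and its relative Pdcd1lg2 (PD-L2) at 1.16, 1.26 and 0.518 TPM in WT and 6.23, 6.83 and 3.93 TPM in Usp22-KOB (log2 difference 1.75 ± 0.24, adjusted p = 0.00189). Lgals3, a galectin, was at 269, 264 and 295 TPM in WT and 732, 723 and 606 TPM in Usp22-KOB (log2 difference 1.31 ± 0.09, adjusted p = 7.72e-05). The pair that fell were Vtcn1 and Nectin2. Both lie on chromosomes 3, 5 and 7, described below, where 2 of 3 tested genes of the list fell and 0 rose. Of the 17 elsewhere 13 rose and 0 fell. Vtcn1, the B7-H4 ligand of epithelial cells, dropped from 16, 15.5 and 15.6 TPM to 0.909, 1.65 and 1.56 TPM (log2 difference -2.83 ± 0.15, adjusted p = 2.94e-05).

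Complement genes rose in 11 of 18 cases (median 1.19). The proteases of the classical pathway, C1ra at 18, 22 and 19.1 TPM in WT and 51.1, 45.4 and 45 TPM in Usp22-KOB (log2 difference 1.22 ± 0.09, adjusted p = 0.000151) and C1s1 at 25.3, 28.3 and 27.5 TPM in WT and 75.2, 62.7 and 57.2 TPM in Usp22-KOB (log2 difference 1.23 ± 0.11, adjusted p = 0.000263), were higher in all 3 Usp22-KOB samples. The pair that fell are regulators that limit complement. Cfi, which inactivates C3b and C4b, was at 198, 218 and 196 TPM in WT and 15, 20.8 and 21.8 TPM in Usp22-KOB, 10.6-fold lower in mean (log2 difference -3.36 ± 0.13, adjusted p = 1.06e-05). Cd55 was at 21.3, 20.9 and 22 TPM in WT and 12.4, 13.9 and 15 TPM in Usp22-KOB (log2 difference -0.60 ± 0.09, adjusted p = 0.00236). Subunits and feedback genes of NF-kB passed the test in 3 of 17 cases, all higher, and the number was 0 without WT 1 or WT 3, 1 without Usp22-KOB 1 or Usp22-KOB 2 and 7 without Usp22-KOB 3. That share, 17.6%, is close to the 17.4% of all genes tested.

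Markers of leukocytes rose along with these groups. Of 16 pan-leukocyte markers, 12 rose and none fell (median 1.23). Their summed level was 485, 713 and 408 TPM in WT and 1928, 1778 and 937 TPM in Usp22-KOB, so the groups did not overlap. Itgb2, the integrin chain shared by leukocytes, was at 31, 43.2 and 29.8 TPM in WT and 180.4, 181 and 106 TPM in Usp22-KOB (log2 difference 2.11 ± 0.23, adjusted p = 0.000767), and Cd52 at 123, 175 and 89.4 TPM in WT and 584, 539.5 and 269.6 TPM in Usp22-KOB (log2 difference 1.81 ± 0.34, adjusted p = 0.00643). The third Usp22-KOB sample lay between WT and the other Usp22-KOB samples for both. Without that sample all 16 of the markers rose, and the number was 5 without WT 1 or WT 3 and 6 without Usp22-KOB 1 or Usp22-KOB 2.

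Macrophage genes followed the same samples. Of 24, 22 rose and 1, the scavenger receptor Marco, fell, a call that was lost without Usp22-KOB 1, Usp22-KOB 2, Usp22-KOB 3 or WT 1 (median 1.48). Adgre1, which encodes the F4/80 antigen, was at 14.8, 26.5 and 15.6 TPM in WT and 67, 59.6 and 32.2 TPM in Usp22-KOB (log2 difference 1.42 ± 0.31, adjusted p = 0.0122), a call that was lost without WT 1 or WT 3. Mertk, a receptor for engulfing dead cells, was at 3.68, 5.26 and 3.69 TPM in WT and 17.8, 17.5 and 11.2 TPM in Usp22-KOB (log2 difference 1.65 ± 0.20, adjusted p = 0.00119). The summed level of the list was 2955, 4673 and 3193 TPM in WT and 12040.0, 11410.0 and 6349 TPM in Usp22-KOB. Lyz2, the lysozyme of myeloid cells, was at 1003, 1448 and 1046 TPM in WT and 5292, 5349 and 3198 TPM in Usp22-KOB (log2 difference 1.96 ± 0.22, adjusted p = 0.000903), and Apoe at 1309, 2114 and 1498 TPM in WT and 5622, 5313 and 2977 TPM in Usp22-KOB (log2 difference 1.47 ± 0.27, adjusted p = 0.006). Both were among the 8 largest gains in mean TPM.

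T cell markers were scarce and rose in 7 of 15 tested cases, with summed levels of 25.4, 26.5 and 14.1 TPM in WT and 74.5, 65.6 and 31.8 TPM in Usp22-KOB. The number that rose was 2 without Usp22-KOB 1 or Usp22-KOB 2, 4 without WT 1 or WT 3 and 12 without Usp22-KOB 3. Cd3e, part of the T cell receptor complex, was at 1.15, 0.749 and 0.769 TPM in WT and 7.3, 4.86 and 1.39 TPM in Usp22-KOB (log2 difference 1.37 ± 0.43, adjusted p = 0.0435), and its call was lost without Usp22-KOB 1, Usp22-KOB 2, WT 1, WT 2 or WT 3. Genes of NK and cytotoxic cells rose in 6 of 7 cases (2 without Usp22-KOB 2 or WT 3). Gzmb, a cytotoxic granule protease, was at 0.794, 1.28 and 0.222 TPM in WT and 8.71, 4.71 and 3.62 TPM in Usp22-KOB (log2 difference 1.89 ± 0.33, adjusted p = 0.00512), and Nkg7 at 0.845, 1.6 and 0.655 TPM in WT and 13.6, 9.65 and 3.73 TPM in Usp22-KOB (log2 difference 2.18 ± 0.41, adjusted p = 0.00652). The first Usp22-KOB sample was the highest in Cd3e, Gzmb and Nkg7. Dendritic cell markers rose in 10 of 13 cases (6 without Usp22-KOB 1 or Usp22-KOB 2), with Itgax at 12.2, 15.9 and 8.22 TPM in WT and 65.7, 66.3 and 37.4 TPM in Usp22-KOB (log2 difference 2.13 ± 0.28, adjusted p = 0.00163).

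Neutrophil markers did not move as a group, with 3 higher and 3 lower of 9, the latter 1 without WT 1 or WT 2. Among the 3 that fell, Ltf is given below with the mucosal defence genes. S100a9 lies on chromosome 3, where 49.5% of the tested genes fell. S100a9, one chain of calprotectin, was at 255, 268 and 262 TPM in WT and 129.6, 128 and 37.8 TPM in Usp22-KOB (log2 difference -1.60 ± 0.44, adjusted p = 0.0276), a call that was lost without WT 1, WT 2 or WT 3. Its partner S100a8 was at 336, 348 and 389 TPM in WT and 205, 195 and 48.4 TPM in Usp22-KOB, and its adjusted p was 0.0565, though it passed as lower without Usp22-KOB 1 or Usp22-KOB 3. Retnlg, a resistin-like gene of neutrophils, moved the other way, at 12, 29.6 and 13.3 TPM in WT and 144, 124 and 51.2 TPM in Usp22-KOB (log2 difference 2.46 ± 0.45, adjusted p = 0.0062). The third Usp22-KOB sample was the lowest of its group in S100a9, S100a8 and Retnlg.

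A fit with the mean level of the 16 pan-leukocyte markers as a covariate called 1124 genes in place of 4793, 523 higher and 601 lower. Of these, 1036 were called by both fits, all in the same direction. The marker level itself did not overlap between the groups, which leaves this fit little to tell them apart by. In it 11 of 17 GTPases were called higher, and their median difference was 2.17 where it was 2.34 without the covariate. For class I genes the number was 12 of 22, with medians of 1.16 and 1.42, and for antiviral genes 11 of 37, with 0.61 and 0.97. The covariate was made from leukocyte markers, so lists that follow those markers shrink in this fit by construction. The source of a list was therefore not tested by it. The medians of MHC class II and of leukocyte lists moved further. MHC class II went from 2.14 to 0.69 (1 of 10 called higher), macrophage markers from 1.48 to 0.26 (3 of 24) and T cell markers to -0.07 (0 of 15). Of the epithelial junction genes described below, 16 of 32 were called lower, with a median of -0.71 in place of -0.98. The number lower was 18 of 41 for classical ductal genes and 8 of 14 for secretory and mucosal defence genes, in place of 32 and 9. It was 3 of 24 for Wnt genes and 1 of 20 for YAP and TEAD targets, in place of 12 and 8. For integrins and laminins it was 1 of 20 and for progenitor and stem cell markers 3 of 14, in place of 7 and 8. Without the second WT sample 15 GTPases, 30 antiviral genes, 10 of the transcription factors and regulators, 9 class II genes, 6 chemokines of T and NK cells, 22 macrophage markers and 10 dendritic cell markers rose. Without the third Usp22-KOB sample the numbers were 16, 30, 13, 9, 7, 22 and 12 in that order, and Irf3 fell. Whether tumor cells or leukocytes carried the interferon response genes cannot be told apart in bulk RNA of tumor-derived samples.

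**Figure D3:**
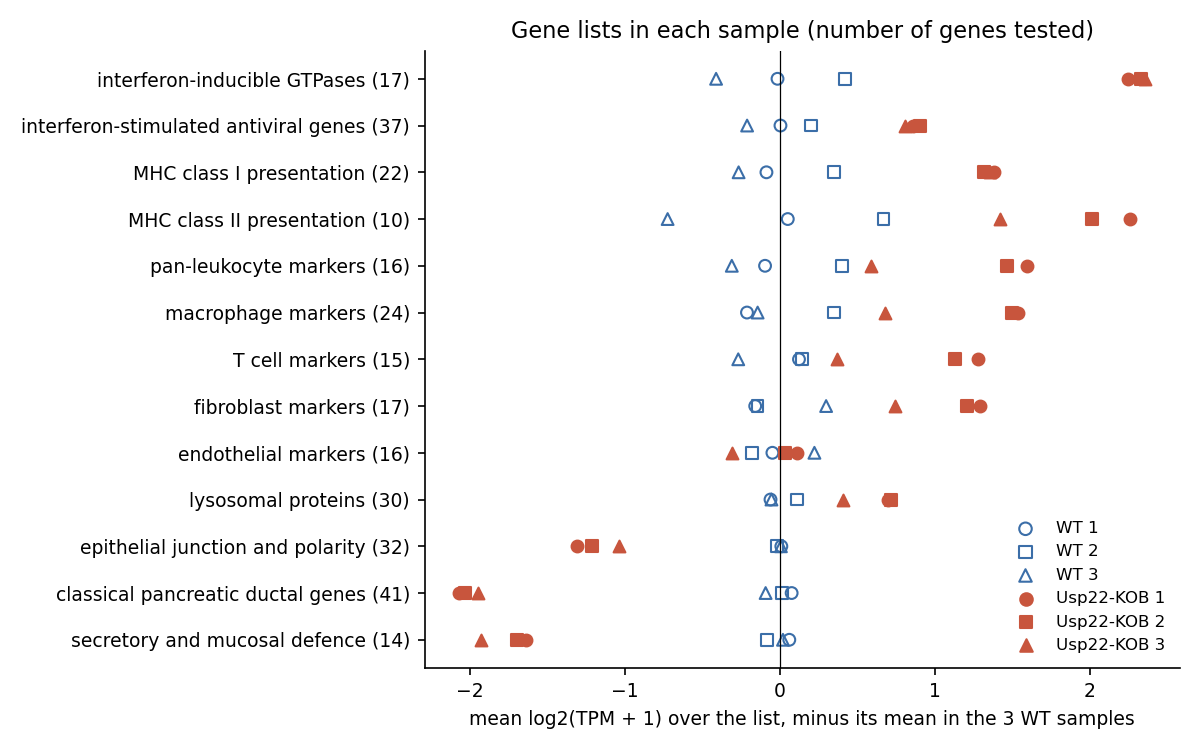
Mean log2(TPM + 1) over each gene list in each sample, with the average of the 3 WT samples subtracted (open blue symbols WT, filled red symbols Usp22-KOB, circle, square and triangle for replicates 1, 2 and 3, number of genes tested in brackets). For leukocyte, macrophage and T cell markers the third Usp22-KOB sample (triangle) lies nearest to WT, while for GTPases and MHC class I the 3 Usp22-KOB samples lie close together.

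The largest rises of all were in a pair of chitinase-like genes. Chil4 (chromosome 3, 106201490 to 106219507) was at 1.95, 0.384 and 2.02 TPM in WT and 309.7, 361 and 436 TPM in Usp22-KOB (log2 difference 7.31 ± 0.30, adjusted p = 1.17e-05). Chil3 (chromosome 3, 106147554 to 106167564), which encodes Ym1 of alternatively activated macrophages, was at 1.91, 2.44 and 2.42 TPM in WT and 214, 216 and 158 TPM in Usp22-KOB (log2 difference 5.91 ± 0.14, adjusted p = 2.42e-06). Chil3 was lowest of its group in the third Usp22-KOB sample, whereas Chil4 was highest there. Genes of alternative activation and eosinophils rose in 8 of 12 cases (median 1.67). Arg1, arginase of these macrophages, was at 141, 116 and 152 TPM in WT and 566, 567 and 361 TPM in Usp22-KOB (log2 difference 1.84 ± 0.19, adjusted p = 0.000539). Rnase2a, a ribonuclease of the eosinophil type, was at 0.664, 0.376 and 0.344 TPM in WT and 13.8, 23.5 and 12.2 TPM in Usp22-KOB (log2 difference 3.53 ± 0.24, adjusted p = 9.43e-05).

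Dcstamp, which drives the fusion of macrophages and osteoclasts, was the only gene under 0.5 TPM in each WT sample and at 5 TPM or more in each Usp22-KOB sample. It was at 0.476, 0.46 and 0.351 TPM in WT and 12.3, 12.2 and 5.98 TPM in Usp22-KOB (log2 difference 2.90 ± 0.26, adjusted p = 0.0003). Mast cell genes rose in 7 of 11 cases and fell in 2. Tpsb2, a tryptase, was at 1.77, 2.62 and 0.768 TPM in WT and 32.9, 28.9 and 18.2 TPM in Usp22-KOB (log2 difference 3.37 ± 0.30, adjusted p = 0.000308), and Cpa3, the mast cell carboxypeptidase, at 0.834, 2.42 and 0.117 TPM in WT and 9.56, 7.8 and 6.16 TPM in Usp22-KOB (log2 difference 2.19 ± 0.39, adjusted p = 0.00512). The 2 that fell, Mcpt4 and Mcpt2, were more abundant than Tpsb2 and Cpa3 in WT. Mcpt4 was at 177, 159 and 146 TPM in WT and 56.8, 54.9 and 55.9 TPM in Usp22-KOB (log2 difference -1.50 ± 0.08, adjusted p = 2.90e-05), and Mcpt2 at 346, 361 and 292 TPM in WT and 192, 200.2 and 209.7 TPM in Usp22-KOB (log2 difference -0.72 ± 0.09, adjusted p = 0.00106). Mast cell proteases thus went both ways within 1 list.

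The largest falls were in gastric-type secretory genes. Gkn1 (chromosome 6, 87345650 to 87350942), a gastrokine of the stomach surface, was at 429, 328 and 257 TPM in WT and 0.255, 0.29 and 0 TPM in Usp22-KOB (log2 difference -8.14 ± 0.19, adjusted p = 2.42e-06). Gkn2 was at 415, 282 and 202 TPM in WT and 0.492, 0.37 and 0.364 TPM in Usp22-KOB (log2 difference -7.68 ± 0.23, adjusted p = 4.68e-06), and Gkn3 at 412, 362 and 260.5 TPM in WT and 2.38, 1.97 and 2.64 TPM in Usp22-KOB (log2 difference -6.68 ± 0.17, adjusted p = 3.29e-06). All 3 gastrokines went from over 200 TPM in every WT sample to under 3 TPM in every Usp22-KOB sample. The trefoil factors, small peptides that protect mucosal surfaces, followed. Tff2 was at 752, 773 and 598 TPM in WT and 11.5, 19.6 and 13.2 TPM in Usp22-KOB (log2 difference -5.51 ± 0.19, adjusted p = 7.19e-06), and Tff1 at 179, 183 and 170.4 TPM in WT and 4.33, 2.4 and 3.74 TPM in Usp22-KOB (log2 difference -5.34 ± 0.16, adjusted p = 4.68e-06). Tff3 was at 16.7, 12.8 and 19.6 TPM in WT and was listed at 0 in all 3 Usp22-KOB samples, so no fold is given (adjusted p = 1.20e-05).

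The Reg genes, secreted lectins of the injured pancreas and gut, were nearly as far down. Reg1 was at 691, 539 and 401 TPM in WT and 4.33, 2.07 and 3.7 TPM in Usp22-KOB (log2 difference -6.97 ± 0.25, adjusted p = 8.01e-06), Reg3b at 714, 595 and 515 TPM in WT and 6.3, 5 and 2.83 TPM in Usp22-KOB (log2 difference -6.77 ± 0.23, adjusted p = 7.22e-06) and Reg3g at 131, 119 and 93.5 TPM in WT and 1.32, 2.05 and 2.02 TPM in Usp22-KOB (log2 difference -5.37 ± 0.16, adjusted p = 4.68e-06). Within WT, the first sample was the highest and the third the lowest in these 3 and in the gastrokines. Agr2, the disulfide isomerase that folds mucins, was at 491, 534 and 337 TPM in WT and 27, 14.6 and 14.9 TPM in Usp22-KOB (log2 difference -4.55 ± 0.26, adjusted p = 4.42e-05). Altogether 32 of 41 genes of the classical ductal program fell and 3 rose (median -0.95), where 17.1% of all genes tested fell. The 3 that rose were Klf4 and the lysozymes Lyz1 and Lyz2, the last of which myeloid cells also express. The call of Lyz1 was lost without Usp22-KOB 1, Usp22-KOB 2, WT 1 or WT 3.

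Among members of that list named after their values were seen, the mucin Muc1 was at 610.0, 577 and 624 TPM in WT and 120.4, 131 and 165 TPM in Usp22-KOB (log2 difference -2.12 ± 0.11, adjusted p = 2.94e-05). Of the transcription factors of ductal identity, Gata6 was at 30.8, 32.5 and 33.2 TPM in WT and 19.6, 18.6 and 25.6 TPM in Usp22-KOB (log2 difference -0.59 ± 0.12, adjusted p = 0.00936), Sox9 at 47.7, 44.4 and 44.6 TPM in WT and 25.9, 28.4 and 32.7 TPM in Usp22-KOB (log2 difference -0.64 ± 0.09, adjusted p = 0.00241) and Foxa1 at 5.26, 5.8 and 5.24 TPM in WT and 0.488, 0.557 and 0.0916 TPM in Usp22-KOB (log2 difference -2.24 ± 0.18, adjusted p = 0.000212). Foxa2 was at 48, 46.4 and 46.2 TPM in WT and 39.2, 40.0 and 53.4 TPM in Usp22-KOB with an adjusted p of 0.568, and Hnf4a at 102, 105 and 103 TPM in WT and 85.7, 87.8 and 109 TPM in Usp22-KOB with 0.29. The falls of Gata6 and Sox9 were thus far smaller than those of the secreted products, and Foxa2 and Hnf4a passed, as lower, without the third Usp22-KOB sample and with array weights.

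Secretory and mucosal defence genes fell in 9 of 14 cases and rose in 1, Nos2, whose call was lost without Usp22-KOB 1, Usp22-KOB 2, WT 1, WT 2 or WT 3 (median -1.79). Dmbt1, a scavenger protein of mucosal surfaces, was at 2182, 1852 and 2072 TPM in WT and 323, 355 and 399 TPM in Usp22-KOB (log2 difference -2.50 ± 0.09, adjusted p = 8.11e-06). Pigr, which carries IgA across epithelia, was at 119.7, 70.3 and 82.4 TPM in WT and 0.885, 1.24 and 1.57 TPM in Usp22-KOB (log2 difference -5.34 ± 0.21, adjusted p = 9.51e-06). Gc, the vitamin D-binding protein, was at 65.9, 91.1 and 62.1 TPM in WT and 1.4, 1.53 and 2.03 TPM in Usp22-KOB (log2 difference -4.79 ± 0.16, adjusted p = 7.19e-06), and Ltf (lactoferrin) at 35.5, 26.9 and 29.2 TPM in WT and 1.06, 0.732 and 0.253 TPM in Usp22-KOB (log2 difference -4.25 ± 0.20, adjusted p = 2.02e-05). No Usp22-KOB value of these 4 genes reached a WT value.

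Further large falls were outside the lists of epithelial products. Kcnk1, a potassium channel, was at 30.2, 24.9 and 28.9 TPM in WT and 0.049, 0.349 and 0.176 TPM in Usp22-KOB (log2 difference -4.61 ± 0.14, adjusted p = 4.68e-06). Grb14, an adaptor that binds the insulin receptor, was at 18.5, 17.4 and 15.4 TPM in WT and 0.329, 0.161 and 0.423 TPM in Usp22-KOB (log2 difference -3.80 ± 0.14, adjusted p = 7.92e-06), and Olfm4, a secreted protein of gut crypts, at 16.7, 11.7 and 12.6 TPM in WT and 0.128, 0.146 and 0.0359 TPM in Usp22-KOB (log2 difference -3.72 ± 0.16, adjusted p = 1.47e-05). Kcnk1, Grb14 and Olfm4 belong, with Gkn1, Gkn2 and Tff3, to 21 genes at 5 TPM or more in each WT sample and under 0.5 TPM in each Usp22-KOB sample.

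Epithelial junction and polarity genes fell in 26 of 32 tested cases and none rose (median -0.98). Besides Epcam, the tight junction claudins Cldn4 at 42.3, 39.8 and 46.3 TPM in WT and 7.14, 8.38 and 7.85 TPM in Usp22-KOB (log2 difference -2.32 ± 0.09, adjusted p = 9.86e-06) and Cldn7 at 78.2, 87.6 and 77.4 TPM in WT and 11.1, 15.2 and 16.4 TPM in Usp22-KOB (log2 difference -2.44 ± 0.14, adjusted p = 3.93e-05) fell. St14, the membrane protease matriptase, was at 11.7, 9.02 and 12.1 TPM in WT and 0.8, 0.746 and 0.475 TPM in Usp22-KOB (log2 difference -2.83 ± 0.16, adjusted p = 3.90e-05). Among those that did not pass were Cdh1, Marveld2, Pkp1, Pkp2 and Jup, of which Marveld2, Pkp2 and Cdh1 passed as lower without the third Usp22-KOB sample. Of 7 keratins of simple epithelium, Krt7 and Krt23 fell, Krt80 rose, and Krt8, Krt18, Krt19 and Krt20 did not pass. Krt7 was at 903, 878 and 934 TPM in WT and 599, 627 and 730.4 TPM in Usp22-KOB (log2 difference -0.48 ± 0.08, adjusted p = 0.00368).

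Mesenchymal genes were mixed. Of 18, 9 rose and 3 fell. S100a4, a calcium-binding protein linked to cell motility, was at 408, 419 and 499 TPM in WT and 3015, 3048 and 3522 TPM in Usp22-KOB, 7.23-fold higher in mean (log2 difference 2.85 ± 0.10, adjusted p = 6.99e-06). Vimentin (Vim) was at 1610.1, 1545 and 1682 TPM in WT and 2493, 2595 and 2802 TPM in Usp22-KOB (log2 difference 0.70 ± 0.06, adjusted p = 0.000221), and the receptor kinase Axl at 97.3, 92.7 and 91.3 TPM in WT and 165, 168 and 185 TPM in Usp22-KOB (log2 difference 0.87 ± 0.06, adjusted p = 0.000117). In all 3 genes the third Usp22-KOB sample was the highest. Over the list, that sample was the lowest of its group in 5 of 18 genes, beside 3093 of 13885 genes tested. Its median lay 0.07 log2 units above the mean of the other Usp22-KOB samples, beside 0.11 over all genes tested. Twist1, a transcription factor of the mesenchymal program, fell from 16.2, 17.1 and 20.8 TPM to 5.65, 6.44 and 4.36 TPM (log2 difference -1.56 ± 0.15, adjusted p = 0.000424). Snai2 and Tcf4 fell too, the call of Snai2 being lost without Usp22-KOB 1, Usp22-KOB 2, WT 1, WT 2 or WT 3. Zeb1, Snai1 and Cdh2 did not pass, though Snai1 passed as higher without WT 3.

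Fibroblast markers rose in 11 of 17 cases (median 0.72), and their summed level was 566, 555 and 995 TPM in WT and 1405, 1293 and 911 TPM in Usp22-KOB. Dcn (decorin) was at 12.2, 12.3 and 16.5 TPM in WT and 44.4, 43.8 and 29.5 TPM in Usp22-KOB (log2 difference 1.44 ± 0.18, adjusted p = 0.00136), and Has1, which makes hyaluronan, at 1.22, 1 and 0.825 TPM in WT and 9.25, 11.6 and 13.2 TPM in Usp22-KOB (log2 difference 2.61 ± 0.16, adjusted p = 5.87e-05). The summed levels overlapped between the groups, as the third WT sample was above the third Usp22-KOB sample. The number that rose was 5 without Usp22-KOB 2 and 6 without Usp22-KOB 1, WT 1 or WT 2. Myofibroblast and pericyte markers rose in none of 9 cases and fell in 4 (2 without Usp22-KOB 2 or WT 3), with Rgs5 at 11.7, 8.02 and 8.02 TPM in WT and 2.58, 2.22 and 2.51 TPM in Usp22-KOB (log2 difference -1.56 ± 0.16, adjusted p = 0.000569). Endothelial markers passed in 1 case higher and 2 lower of 16 (Lyve1 higher, Sox17 and Esam lower, and 2 without Usp22-KOB 3 for the number higher), and Pecam1 was at 6.93, 5.73 and 10.5 TPM in WT and 10.5, 11.3 and 6.61 TPM in Usp22-KOB with an adjusted p of 0.432.

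Enzymes that remodel the matrix and their inhibitors rose in 16 of 31 cases and fell in 7. Mmp12, the macrophage elastase, was at 38.3, 32.1 and 33.6 TPM in WT and 349, 370.2 and 222 TPM in Usp22-KOB (log2 difference 3.11 ± 0.19, adjusted p = 5.69e-05). Mmp13, a collagenase, was at 31.9, 27.4 and 32.4 TPM in WT and 88.6, 97.2 and 87 TPM in Usp22-KOB (log2 difference 1.54 ± 0.08, adjusted p = 3.47e-05), while Mmp11 fell from 13.9, 15.5 and 14.4 TPM to 6.26, 6.71 and 7.28 TPM (log2 difference -1.01 ± 0.09, adjusted p = 0.000336). Collagens rose in 8 of 21 and fell in 1, Col16a1, with Col6a1 at 103, 95.3 and 128 TPM in WT and 156, 156 and 159.6 TPM in Usp22-KOB (log2 difference 0.54 ± 0.10, adjusted p = 0.0073). The number of collagens that rose was 1 without Usp22-KOB 2 or WT 1, 2 without Usp22-KOB 1 and 3 without WT 2, and the fall of Col16a1 was lost without Usp22-KOB 2, WT 2 or WT 3. Integrins and laminins fell in 7 of 20 cases and rose in 2. Lama3, a chain of the epithelial basement membrane, was at 8.43, 7.26 and 8.65 TPM in WT and 0.854, 1.15 and 1.56 TPM in Usp22-KOB (log2 difference -2.07 ± 0.16, adjusted p = 0.000152). The number of that list that fell was 4 without Usp22-KOB 2 or WT 1, and the number that rose 4 without Usp22-KOB 1.

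Wnt ligands, receptors and targets fell in 12 of 24 tested cases and none rose (median -0.49). Wnt4 was at 15.9, 15.3 and 15.5 TPM in WT and 3.85, 3.75 and 5.4 TPM in Usp22-KOB (log2 difference -1.65 ± 0.13, adjusted p = 0.000184), and Wnt7b, a ligand active in pancreatic cancer cells, at 21.2, 20.3 and 19.6 TPM in WT and 7.28, 10.4 and 10.8 TPM in Usp22-KOB (log2 difference -1.04 ± 0.14, adjusted p = 0.00181). Rnf43, which removes Wnt receptors from the membrane, was at 8.39, 7.75 and 7.55 TPM in WT and 3.06, 2.68 and 3.32 TPM in Usp22-KOB (log2 difference -1.15 ± 0.11, adjusted p = 0.000481). No value of one group reached the other in these 3 genes.

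Progenitor and stem cell markers fell in 8 of 14 cases and rose in 1. Prom1, which encodes CD133, was at 411, 391 and 401 TPM in WT and 56.1, 60.8 and 77.8 TPM in Usp22-KOB (log2 difference -2.62 ± 0.11, adjusted p = 1.46e-05). Dclk1, a kinase of tuft cells, was at 41.5, 37.4 and 34.4 TPM in WT and 2.73, 3.03 and 2.51 TPM in Usp22-KOB (log2 difference -3.36 ± 0.10, adjusted p = 4.68e-06). The gene that rose was Ly6a (Sca-1), which interferon also induces, at 161, 163 and 159 TPM in WT and 595, 591 and 577 TPM in Usp22-KOB (log2 difference 1.86 ± 0.04, adjusted p = 2.42e-06). Within each group its 3 values were almost equal.

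Signalling lists that went both ways included the targets of YAP and TEAD, with 3 higher and 8 lower of 20, the latter 4 without WT 1 and 5 without Usp22-KOB 1, Usp22-KOB 2 or WT 2. Cyr61, a secreted matricellular target, was at 190.3, 171 and 191 TPM in WT and 54, 62.5 and 58.1 TPM in Usp22-KOB (log2 difference -1.65 ± 0.08, adjusted p = 1.75e-05). Genes of the TGF-beta pathway rose in 6 and fell in 7 of 23 cases, and feedback genes of RAS and MAPK in 6 and 5 of 18. Beside the 17.4% and 17.1% of all genes tested, these shares were 26.1% higher and 30.4% lower for the first list and 33.3% and 27.8% for the second. For the RAS and MAPK list the number higher was 3 without Usp22-KOB 2, and the number lower 2 without Usp22-KOB 2 or WT 1 and 3 without Usp22-KOB 1 or WT 2. Of the EGF ligands and receptors, 4 of 11 fell (2 without Usp22-KOB 2) and none rose, with Erbb3 at 40.2, 40.2 and 39.8 TPM in WT and 13.8, 15.8 and 20.5 TPM in Usp22-KOB (log2 difference -1.23 ± 0.13, adjusted p = 0.000697). Immediate early genes rose in 10 of 22 cases and fell in 1, Fosl2. Klf2, a factor best known in endothelium and lymphocytes, was at 34.6, 33.3 and 30.9 TPM in WT and 94.8, 93.6 and 75.6 TPM in Usp22-KOB (log2 difference 1.38 ± 0.10, adjusted p = 0.000119).

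DNA replication genes rose in 5 and fell in 3 of 30 cases, and mitosis genes in 6 and 2 of 26. That is 16.7% and 23.1% higher, beside 17.4% of all genes tested, and 10% and 7.69% lower, beside 17.1%. On chromosomes 3, 5 and 7, where many genes fell as described below, 1 of 8 replication genes rose and 2 fell. Of 6 mitosis genes there, 0 rose and 2 fell. Elsewhere 4 of 22 replication genes rose and 1 fell, and 6 of 20 mitosis genes rose and 0 fell. The number of replication genes that rose was 2 without Usp22-KOB 2 and 3 without WT 1 or WT 3, the number that fell 5 without Usp22-KOB 3, and the number of mitosis genes that fell 0 without Usp22-KOB 2 or WT 1 and 1 without Usp22-KOB 1 or WT 2. Rrm2, a subunit of the enzyme that makes deoxynucleotides, was at 33.5, 35.9 and 31.2 TPM in WT and 49.5, 50.2 and 54 TPM in Usp22-KOB (log2 difference 0.60 ± 0.07, adjusted p = 0.00128). Its partner Rrm1 went the other way, at 31.2, 33.2 and 32.1 TPM in WT and 21.1, 23.9 and 23 TPM in Usp22-KOB (log2 difference -0.49 ± 0.07, adjusted p = 0.00261). Cdkn2a, a brake on the cell cycle, was still abundant at 523, 503 and 476 TPM in WT and 288, 283 and 349 TPM in Usp22-KOB (log2 difference -0.71 ± 0.09, adjusted p = 0.00123), and Ccnd2 (cyclin D2) at 81.3, 84.3 and 70.8 TPM in WT and 35.2, 32.8 and 42.2 TPM in Usp22-KOB (log2 difference -1.09 ± 0.11, adjusted p = 0.000532).

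Lysosomal proteases and membrane proteins rose in 24 of 30 cases and fell in 1, Gaa, whose call was lost without Usp22-KOB 1, WT 2 or WT 3 (median 0.56). Ctsk, a collagen-degrading cathepsin, was at 9.89, 10.3 and 13 TPM in WT and 38.3, 41.8 and 31.1 TPM in Usp22-KOB (log2 difference 1.65 ± 0.14, adjusted p = 0.000235). Npc1, which exports cholesterol from lysosomes, was at 35.8, 35.5 and 32.8 TPM in WT and 48.9, 52.8 and 53 TPM in Usp22-KOB (log2 difference 0.56 ± 0.07, adjusted p = 0.00111). Sterol synthesis genes rose in 12 of 24 cases and none fell, the number being 4 without WT 2, 6 without WT 3 and 7 without Usp22-KOB 2 or WT 1. Insig1, which holds the sterol sensor in the endoplasmic reticulum, was at 37.1, 35.7 and 39 TPM in WT and 45.8, 49.9 and 55.1 TPM in Usp22-KOB (log2 difference 0.42 ± 0.08, adjusted p = 0.00783). Genes of fatty acid and triglyceride handling rose in 10 of 23 cases and fell in 4 (median 0.20). Among those that rose, Cd36, an importer shared by macrophages, was at 4.64, 4.52 and 4.08 TPM in WT and 37.7, 41.7 and 25.3 TPM in Usp22-KOB (log2 difference 2.70 ± 0.18, adjusted p = 8.12e-05). The lipid droplet coat Plin2 was at 105, 119 and 116 TPM in WT and 232, 257 and 201 TPM in Usp22-KOB (log2 difference 1.01 ± 0.10, adjusted p = 0.000405). With the pan-leukocyte covariate 6 lysosomal and 7 sterol genes were called higher, with medians of 0.20 and 0.50 where they were 0.56 and 0.23 without it.

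Antioxidant genes under NRF2 split, with 12 higher and 6 lower of 22. Gpx2, the glutathione peroxidase of gut epithelium, was at 143, 123 and 114 TPM in WT and 6.42, 10.2 and 9.46 TPM in Usp22-KOB (log2 difference -3.73 ± 0.17, adjusted p = 1.54e-05). Nqo1, a quinone reductase, was at 17.5, 15.8 and 15.6 TPM in WT and 5.56, 4.84 and 5.54 TPM in Usp22-KOB (log2 difference -1.45 ± 0.09, adjusted p = 7.77e-05). Among hypoxia genes, 5 of 23 fell and 1, Plin2, rose. The share that fell, 21.7%, is close to the 17.1% of all genes tested. Vegfa, the vessel growth factor, was at 245, 211 and 230.1 TPM in WT and 106, 117 and 130.0 TPM in Usp22-KOB (log2 difference -0.96 ± 0.09, adjusted p = 0.000381), and Adm (adrenomedullin) at 26.7, 23.5 and 22.4 TPM in WT and 8.03, 9.49 and 4.79 TPM in Usp22-KOB (log2 difference -1.62 ± 0.21, adjusted p = 0.00156). Glycolysis enzymes rose in 6 and fell in 7 of 21 (3 without WT 1 for the number higher). All 3 on chromosomes 3, 5 and 7 fell, and of the 18 elsewhere 6 rose and 4 fell. Hk2, a hexokinase of tumor cells, was at 52.2, 49.1 and 45.7 TPM in WT and 30.4, 29.9 and 32 TPM in Usp22-KOB (log2 difference -0.65 ± 0.07, adjusted p = 0.000753). Slc7a11, the cystine importer, was at 7.3, 6.42 and 5.98 TPM in WT and 16.9, 17.5 and 17 TPM in Usp22-KOB (log2 difference 1.26 ± 0.09, adjusted p = 0.000129).

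Among abundant transcripts, Spp1 (osteopontin) lost the most TPM, from 13982, 13693 and 14396 TPM to 7603, 8399.9 and 9574 TPM (log2 difference -0.72 ± 0.08, adjusted p = 0.000903). Under quantile normalization, which presses the highest values together, its difference was -0.25 with an adjusted p of 0.239. Clu (clusterin), a secreted chaperone, was at 8307, 8293 and 8307 TPM in WT and 3813, 4055 and 4483 TPM in Usp22-KOB (log2 difference -1.01 ± 0.06, adjusted p = 6.23e-05). S100a11 was at 5363, 5168 and 5424 TPM in WT and 3343, 3348 and 3471 TPM in Usp22-KOB (log2 difference -0.65 ± 0.04, adjusted p = 7.89e-05), and Plac8, a gene of pancreatic cancer cells and myeloid cells, at 2961, 2709.9 and 2820.3 TPM in WT and 1311, 1383 and 1539 TPM in Usp22-KOB (log2 difference -1.01 ± 0.07, adjusted p = 9.43e-05). Tmsb10, an actin-binding peptide, gained, at 5780.0, 5536 and 5738 TPM in WT and 7807, 7489 and 7574 TPM in Usp22-KOB (log2 difference 0.42 ± 0.04, adjusted p = 0.000506). No value of one group reached the other in these 5 genes. Within Usp22-KOB, Spp1, Clu, S100a11 and Plac8 were lowest in the first sample and highest in the third. The SD of Spp1 was 354 TPM in WT and 992 TPM in Usp22-KOB.

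The falls were unevenly placed along the genome. Chromosome 3 held 693 tested genes, of which 343 (49.5%) fell and 48 (6.93%) rose, with a median log2 difference of -0.33. Relative to the WT mean, the median gene of that chromosome was at -0.33, -0.32 and -0.30 in the 3 Usp22-KOB samples and within 0.02 of 0 in each WT sample. On chromosome 5, 216 of 539 genes (40.1%) below 120 Mb fell (median -0.25), against 24 of 333 (7.21%) from 120 Mb on, where 92 rose (median 0.10). On chromosome 7, 353 of 1055 genes (33.5%) fell (median -0.16), in stretches that alternated with others of few falls. On all other chromosomes together, 1413 of 11041 genes (12.8%) fell and 2046 (18.5%) rose. These chromosomes and the position on chromosome 5 were picked after the values were seen, so the shares are a description.

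The 3 chromosomes held 2620 of the 13885 tested genes (18.9%) and 936 of the 2380 falls (39.3%). Their share of falls of at least 1 log2 unit was 161 of 583 (27.6%). The median on chromosome 3 stayed between -0.37 and -0.22 over all 18 alternative settings, and that on chromosome 5 below 120 Mb between -0.27 and -0.16. DNA copy number was not analysed here. The gastrokines, trefoil factors, Reg genes and Epcam lie on none of the 3 chromosomes. Chil3, Chil4, Gbp2, Gbp5, Cxcl9 and Cxcl10, all higher, lie on chromosomes 3 and 5. Falls named above lie on the 3 chromosomes too. Examples are Cfi, Vtcn1 and S100a11 on chromosome 3, Gc, Spp1, Plac8 and Cxcl5 on chromosome 5, and Dmbt1 and Taf10 on chromosome 7.

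**Figure D4:**
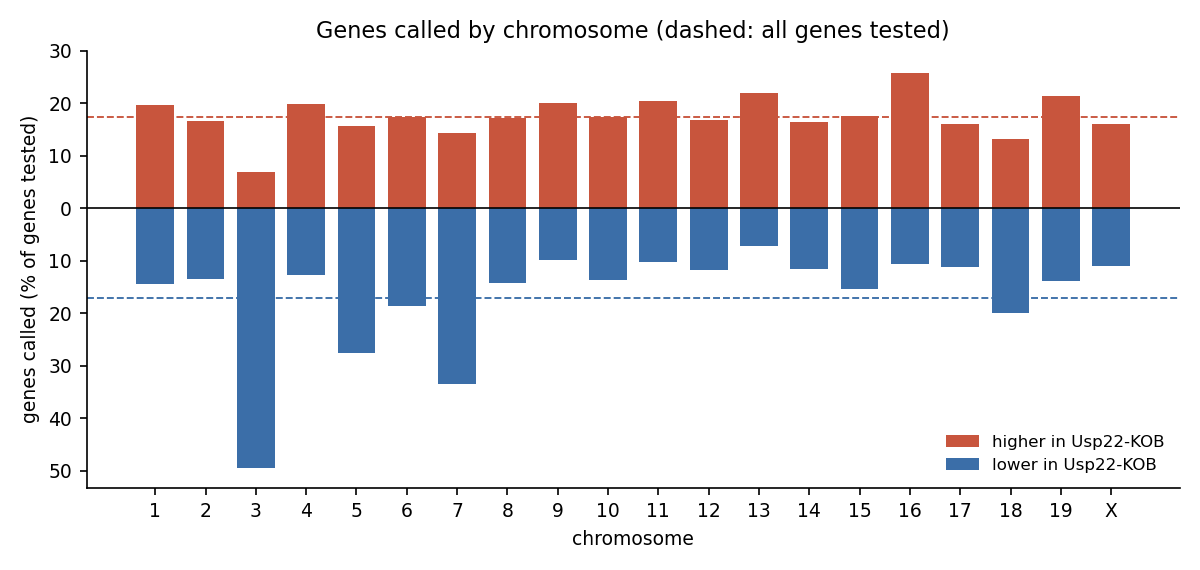
Percent of the tested genes of each chromosome that rose (red, upward) or fell (blue, downward) in Usp22-KOB, with dashed lines at the share over all genes (17.4% and 17.1%). Falls reach 49.5% on chromosome 3, 33.5% on chromosome 7 and 27.5% on chromosome 5.

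Lists of housekeeping genes differed in how far their falls followed position. Of 65 cytosolic ribosomal proteins 12 fell, all among the 19 on chromosomes 3, 5 and 7, and 0 of the 46 elsewhere fell (medians -0.38 and 0.00). Rpl18, on chromosome 7, was at 2455, 2763 and 2474 TPM in WT and 1835, 1734 and 1837 TPM in Usp22-KOB (log2 difference -0.51 ± 0.06, adjusted p = 0.000989), and Rplp0, on chromosome 5, at 2658, 2708 and 2625 TPM in WT and 2085, 2064 and 2055 TPM in Usp22-KOB (log2 difference -0.36 ± 0.04, adjusted p = 0.000663). Subunits of respiratory complex I fell in 4 of 5 cases on those chromosomes and 7 of 32 elsewhere, and those of complexes II to V in 5 of 6 and 16 of 32. On all other chromosomes together 12.8% of the tested genes fell, so the respiratory falls were not confined to those chromosomes. Cox6a1, a subunit of cytochrome oxidase on chromosome 5, was at 1787, 1861 and 1959 TPM in WT and 1226, 1193 and 1216 TPM in Usp22-KOB (log2 difference -0.62 ± 0.05, adjusted p = 0.000154). Epithelial junction genes fell in 8 of 8 cases on those chromosomes and in 18 of 24 elsewhere, and Wnt genes in 2 of 5 and 10 of 19. Progenitor and stem cell markers, Prom1 and Dclk1 among them, fell in 4 of 4 cases on those chromosomes (median -2.03) and in 4 of 10 elsewhere (median -0.39). Targets of YAP and TEAD fell in 4 of 5 cases on those chromosomes (median -0.51) and in 4 of 15 elsewhere (median -0.04). Constitutive proteasome subunits rose in 10 of 31 cases and fell in 1, Psma1, on chromosome 7. The number that rose was 4 without WT 1 or WT 3 and 5 without Usp22-KOB 2.

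**Figure D5:**
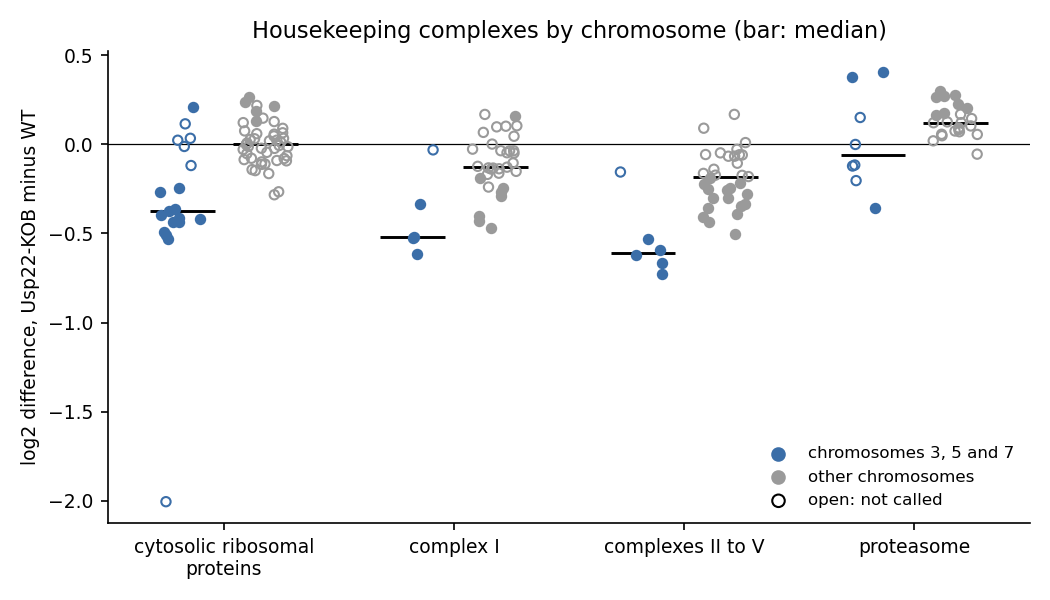
Log2 difference (Usp22-KOB minus WT) of each tested subunit of 4 housekeeping complexes, split into genes on chromosomes 3, 5 and 7 (blue) and on other chromosomes (grey), filled where called, with medians as bars. For cytosolic ribosomal proteins the medians are -0.38 and 0.00, and the open point near -2 is Rps27, whose reads are shared with the copy Rps27rt.

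The 3 Usp22-KOB samples differed from each other in a few abundant genes, taken here among those that averaged 50 TPM or more in that group. The globin Hba-a2 was at 134, 290.4 and 237 TPM in WT and 213, 384 and 31.7 TPM in Usp22-KOB, with overlapping groups. Rps27 was at 581, 1683 and 598 TPM in WT and 422, 274 and 76.9 TPM in Usp22-KOB, while its copy Rps27rt was at 12668, 11925 and 14372 TPM in WT and 9938, 9302 and 9323 TPM in Usp22-KOB (log2 difference -0.44 ± 0.07, adjusted p = 0.00405). Lst1, a leukocyte gene of the MHC region, was at 44.3, 49.8 and 33.4 TPM in WT and 139.6, 104 and 44 TPM in Usp22-KOB, and Akr1b3, an aldose reductase, at 47.8, 62.9 and 66.4 TPM in WT and 88.9, 47.1 and 30.3 TPM in Usp22-KOB. Among the 4 genes Hba-a2, Rps27, Lst1 and Akr1b3, the third Usp22-KOB sample was the lowest of its group in each, and none passed the test. Without that sample Lst1 passed as higher, and without Usp22-KOB 1 Rps27 passed as lower. Under quantile normalization Rps27rt was higher by 0.085, with an adjusted p of 0.256.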

How the data were processed

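Messenger RNA of tumor cells from implanted 6419c5 tumors was sequenced, with 3 WT and 3 Usp22-KOB samples grouped by the genotype label. The values used are the TPM per gene that the authors deposited as 1 table of Salmon estimates. The submitters' processing notes name Salmon, DESeq2 and mm10, without versions, and no source used here gives the annotation. TPM keep no read counts, so no count test was run and depth is unknown. Genes averaging 1 TPM or more across the 6 samples were tested on log2(TPM + 1) with limma 3.58.1 (R 4.3.3, trend) in 1 fit with no covariate, and p-values were adjusted by the Benjamini-Hochberg method over 13885 genes. The reference positions are those of GENCODE M21 on GRCm38, matched by symbol for 13662 genes, and promoters are those of RefSeq.

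The scripts were tested on artificial data. The 18 alternatives covered the pseudocount, the filter, scaling, the limma settings, a leukocyte covariate, all 9 samples, the replicate block and leaving out each sample.

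The members and the 67 gene lists were chosen with earlier results of these data known. Named genes are Usp22, the 15 highest and 15 lowest differences among called genes that do not overlap and reach 5 TPM, the 8 largest rises and falls in mean TPM, up to 6 genes per direction under 0.5 TPM in one group and at 5 TPM or more in the other, up to 4 called members per list by adjusted p, 6 genes of widest spread in Usp22-KOB, and the defining cell type markers. Predicted, microRNA and receptor segment genes were passed over, and some genes are not reported here. Mir6236, the highest feature, took 5.22 to 6.85% of each library.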

Additional observations from a re-analysis of the deposited data

How the results depend on the processing

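The main comparison called 4793 genes, and 11 of the 12 alternatives that kept all samples of both groups gave 3773 to 7001. With a covariate for the pan-leukocyte marker level the number was 1124 (523 higher, 601 lower), and with array weights 3717 genes were lower. Leaving out 1 sample at a time gave 3023 to 5646 calls, 1433 to 2535 higher and 1563 to 3111 lower, with 3104 without WT 1 and 3023 without Usp22-KOB 2. Usp22 was called lower in all 18 alternatives. No scaling moved the median of all genes by over 0.1 log2 units. The direction of a called gene named above turned in 3 cases, namely Ptprc (-0.17) and Lyz1 (-0.19) with the leukocyte covariate and Rps27rt (0.085) under quantile normalization, and none of these 3 passed the test there. The cause was not tested. The labels do not say whether samples of the same number belong together. The deviations of same-numbered samples correlated at -0.12, 0.02 and 0.07, and those of differently numbered samples at -0.18 to 0.19. These values cannot decide whether the samples are paired. A fit with the replicate number as a block called 3773 genes, 1940 higher and 1833 lower.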
